A study of Rattus norvegicus with 6 samples.

Results

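The genes described here encode subunits of the 5 oxidative phosphorylation complexes and lie in the nuclear genome. They were taken as all protein-coding probes whose transcript maps to a rat symbol beginning with Nduf, Uqcr, Cox4 to Cox8 or Atp5, or to Sdha, Sdhb, Sdhc or Sdhd. This gave 83 probes for 80 genes, out of 13886 coding genes with a symbol on the array, and a gene with several probes is represented by the one of highest mean signal. RefSeq holds 118 protein-coding symbols that match the rule, so the genes measured do not cover them all. Of the 80 genes 77 could be tested, and all 77 were well above background in every scan. The rule also takes in 5 complex I assembly factors (symbols beginning with Ndufaf), which build the complex without being part of it and are reported apart from the subunits.

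RNA came from H9c2, an established line of myoblasts grown out of embryonic rat heart tissue, and was read on 1-colour Agilent arrays carrying mRNA and lncRNA probes. The control group (3 samples) was kept at normal oxygen. The hypoxia/reoxygenation group (H/R, 3 samples) spent 1 h at 1% oxygen in medium without serum or glucose and then 3 h at normal oxygen, so oxygen, serum and glucose all differ from routine culture. Routine culture of the line was in DMEM with 4500 mg/L glucose and 10% serum, and the labels do not give the medium of the control cells during the experiment. No genetic change is named for either group. One protocol sentence in the labels names mouse cortex as the source of the RNA, against the rat line named everywhere else.

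The respiratory chain passes electrons from NADH (complex I) and succinate (complex II) through coenzyme Q, complex III and cytochrome c to oxygen at complex IV, and complex V uses the proton gradient this builds to make ATP. The subunits are encoded partly in the mitochondrial genome and mostly in the nucleus, and only nuclear genes are described here. The 13 mitochondrially encoded subunits were looked for only among probes of RefSeq mRNA records, which gave 0. Whether the array carries other probes for them was not checked. Heart and skeletal muscle rely heavily on this pathway, and complex IV has muscle forms of several subunits, such as Cox6a2 and Cox8b, beside the ubiquitous Cox6a1 and Cox8a. Oxygen at complex IV is the step that hypoxia limits and reoxygenation restores.

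Replicates 2 and 3 of either group were scanned from the same slide position, and their files shared 36 spots with uneven local background, against at most 1 in any other pair of files. Across member genes the paired scans differed by a median of 0.0137 and at most 0.113 on the log2 scale. Each such pair counts here as 1 array, so n = 2 arrays in either group: array 1 is replicate 1 and array 2 the mean of replicates 2 and 3. Levels below are log2 of the processed signal relative to the 75th percentile of the same array, and a change is H/R minus control. Errors of changes are moderated standard errors from limma, and a gene was called when its Benjamini-Hochberg adjusted p over all 15899 probes tested was under 0.05. The labels tie no array to a culture of its own, so these p-values measure the spread between arrays, which may be technical. In bulk RNA, fewer cells expressing a gene and less RNA per cell cannot be told apart.

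Promoter sequences are shown for the 3 members that were called, for the pair of isoforms whose changes differed most, and for Atp5me, which holds the letters of the NRF1, ETS and YY1 motifs together. They were picked with their values known. Each line gives the 250 bases before the annotated start from RefSeq (GRCr8), 5′ to 3′ on the gene's strand, with capitals where the letters of a searched motif occur.
Ndufa7, chr7:15311196-15311445, strand +: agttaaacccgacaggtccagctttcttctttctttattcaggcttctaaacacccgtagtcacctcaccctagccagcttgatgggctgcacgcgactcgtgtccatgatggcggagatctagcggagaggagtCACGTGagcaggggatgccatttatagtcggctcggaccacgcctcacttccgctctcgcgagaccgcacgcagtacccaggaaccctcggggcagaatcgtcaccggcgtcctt
Ndufa4, chr4:40975560-40975809, strand -: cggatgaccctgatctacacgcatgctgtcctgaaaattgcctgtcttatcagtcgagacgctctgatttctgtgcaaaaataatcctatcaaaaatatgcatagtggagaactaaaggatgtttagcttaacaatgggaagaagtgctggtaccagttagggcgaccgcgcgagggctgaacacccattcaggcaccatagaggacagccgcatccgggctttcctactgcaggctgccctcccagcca
Ndufaf7, chr6:21871966-21872215, strand -: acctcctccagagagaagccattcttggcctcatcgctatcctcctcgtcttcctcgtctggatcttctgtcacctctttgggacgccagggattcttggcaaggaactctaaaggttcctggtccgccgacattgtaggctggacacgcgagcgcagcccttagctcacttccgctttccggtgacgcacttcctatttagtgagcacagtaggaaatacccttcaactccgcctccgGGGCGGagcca
Cox8a, chr1:213833624-213833873, strand -: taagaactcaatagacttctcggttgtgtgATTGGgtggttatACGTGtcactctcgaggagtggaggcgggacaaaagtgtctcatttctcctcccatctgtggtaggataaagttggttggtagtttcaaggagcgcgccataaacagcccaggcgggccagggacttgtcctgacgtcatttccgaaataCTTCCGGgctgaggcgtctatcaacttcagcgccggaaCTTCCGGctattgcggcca
Cox8b, chr1:205408274-205408523, strand -: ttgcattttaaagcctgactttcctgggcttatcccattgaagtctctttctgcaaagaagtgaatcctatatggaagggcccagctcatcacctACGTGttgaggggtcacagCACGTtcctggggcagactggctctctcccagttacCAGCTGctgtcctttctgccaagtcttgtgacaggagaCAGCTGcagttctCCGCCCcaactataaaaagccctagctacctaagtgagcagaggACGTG
Atp5me, chr14:1464610-1464859, strand +: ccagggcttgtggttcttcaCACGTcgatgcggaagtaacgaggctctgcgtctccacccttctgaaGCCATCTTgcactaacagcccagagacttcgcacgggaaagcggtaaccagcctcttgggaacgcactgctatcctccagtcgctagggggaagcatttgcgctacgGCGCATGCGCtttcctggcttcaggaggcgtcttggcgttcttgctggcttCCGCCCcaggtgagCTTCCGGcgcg
The motifs searched on both strands were NRF1, ETS (CCGGAAG, the core bound by GABP), YY1 (AAGATGGC), the ERR half-site (AAGGTCA), the core of the HIF response element (ACGTG), the muscle E-box (CAGCTG), the CCAAT box and SP1 (GGGCGG). The Ndufa7 promoter holds the palindrome CACGTG, in which the HIF core matches once on each strand. In Cox8b there are 3 HIF cores and 2 E-boxes, and in Cox8a there are 2 ETS matches and 1 HIF core. The Ndufa4 window holds none of these letters, which says only that they do not occur in it.

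Motifs of factors known to regulate nuclear respiratory genes (NRF1, ETS, YY1 and ERR) occurred in larger shares of member promoters than of promoters at large. Promoters of 71 of the 80 members were in the RefSeq table, each from 250 bases before to 50 after the start, and 8636 promoters of tested coding genes gave the comparison. NRF1 letters occurred in 14 member promoters (19.7%) against 8.92% of tested coding genes and 4.25% of all 33469 promoters. ETS letters occurred in 21 (29.6%) against 16.6% of tested coding genes. YY1 letters were in 12 (16.9%) against 4.94%, and the ERR half-site in 9 (12.7%) against 3.18%. The HIF core was in 19 (26.8%) against 24.4%, and the E-box in 12 (16.9%) against 16.6%. Less frequent in members were the CCAAT box, in 24 (33.8%) against 38.5%, and SP1 letters, in 31 (43.7%) against 56.8%. The NRF1 letters were in 4 of 14 complex V promoters and in 0 of 14 complex IV promoters. GC content was similar, with a median of 57.0% in members and 59.7% in tested coding genes. These shares describe sequence alone, with no test, and a match is not a bound site.

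After H/R, mRNA levels of most of these genes lay close to control. Of the 77 genes tested 1 rose and 2 fell, which is 3.90% of them, against 25.8% of the 10001 coding genes tested on the same arrays (16.2% higher and 9.62% lower). The gene that rose was the assembly factor Ndufaf7, and those that fell were the complex I subunit Ndufa7 and the complex IV subunit Ndufa4. Among the 72 subunits tested without the assembly factors 0 rose and 2 fell (limma), and 5 had an unadjusted p under 0.05. At an unadjusted p under 0.05, 7 of the 77 members (9.09%) passed, against 41.9% of coding genes. Without the filter on dim probes or after normexp background correction 0 members were called (limma, 5 and 1 at an unadjusted p under 0.05), beside 3.10% and 0% of coding genes, so these counts say nothing particular to the members. With the 6 scans taken as separate samples 11 members rose and 5 fell (20.8%), beside 54.3% of coding genes.

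The changes were small as well as seldom called. The median over the 77 genes was 0.09 (1.07-fold), beside 0.07 over all coding genes, and 51 changes were positive and 26 negative. Changes smaller than 0.25 in either direction made up 79.2% of the members (61 of 77) and 47.5% of coding genes. The lower and upper quartiles were -0.07 and 0.19 for members and -0.20 and 0.33 for all coding genes. Most members were bright, with levels above the percentile used for scaling. The called genes Ndufa7, Ndufa4 and Ndufaf7 were dimmer (mean log2 signals 7.39, 4.85 and 8.77), as were some members not called. Coding genes were not matched to members for signal. The part of signal level in the narrower spread and the lower share called was not tested. The median standard error was 0.119 for members and 0.112 for coding genes. Both are moderated toward a variance shared by all probes, so their closeness does not show equal precision. The 95% interval of the change lay within 2-fold either way for 74 of 77 members (96.1%), against 81.4% of coding genes, and within 1.5-fold for 59 of 77, against 48.6%. The intervals of Ndufa7, Ndufaf1 and Cox8b reached beyond 2-fold. These intervals bound the change of each transcript as the arrays measured it and do not show that a level was the same in both groups.

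**Figure D1:**
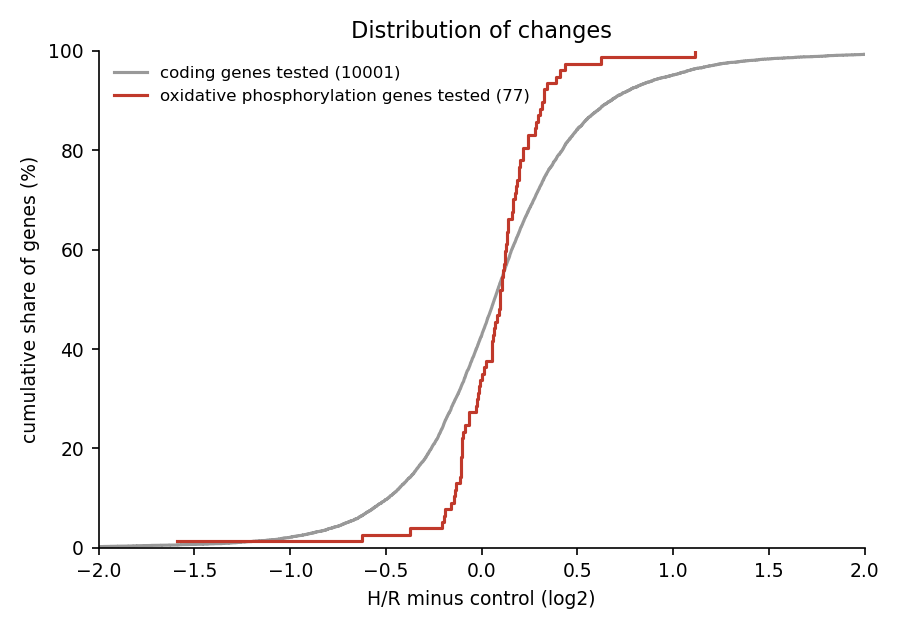
Cumulative share of genes (vertical axis, %) by change, H/R minus control (horizontal axis, log2, drawn from -2 to 2), for the 77 oxidative phosphorylation genes (red) and the 10001 coding genes tested (grey), each over 2 arrays per group. The red curve is steeper: its quartiles are -0.07 and 0.19 and those of the grey curve -0.20 and 0.33, around medians of 0.09 and 0.07.

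The arrays of the groups overlapped for most members. Both H/R arrays lay above both control arrays for 24 members, 40.5% being the share among coding genes, and below them for 10 members, the share among coding genes being 29.1%. For the other 43 members the groups overlapped. By complex the median change was 0.13 in complex I, 0.13 in complex II, 0.06 in complex III, 0.07 in complex IV and 0.06 in complex V, and 0.08 over the complex I assembly factors. Scaled to each array's median in place of its 75th percentile, the median over members was -0.03 and that over coding genes -0.06, so the sign of these small medians depends on the scaling. They also differed between the H/R arrays. Set against the control mean, the median was 0.17 on array 1 and 0.07 on array 2 in complex I, 0.12 and 0.01 in complex IV, and 0.13 and -0.02 in complex V, where array 2 was above array 1 for 1 of 15 genes. In complexes II and III the arrays gave 0.14 and 0.12, and 0.04 and 0.04. Among coding genes H/R array 2 was above array 1 for 47.5%. The control arrays differed as well, and in the other direction. The median of array 2 minus array 1 over members was 0.13 in control and -0.05 in H/R, and in complex V 0.21 and -0.12. Over coding genes it was 0.06 in control and -0.01 in H/R.

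**Figure D2:**
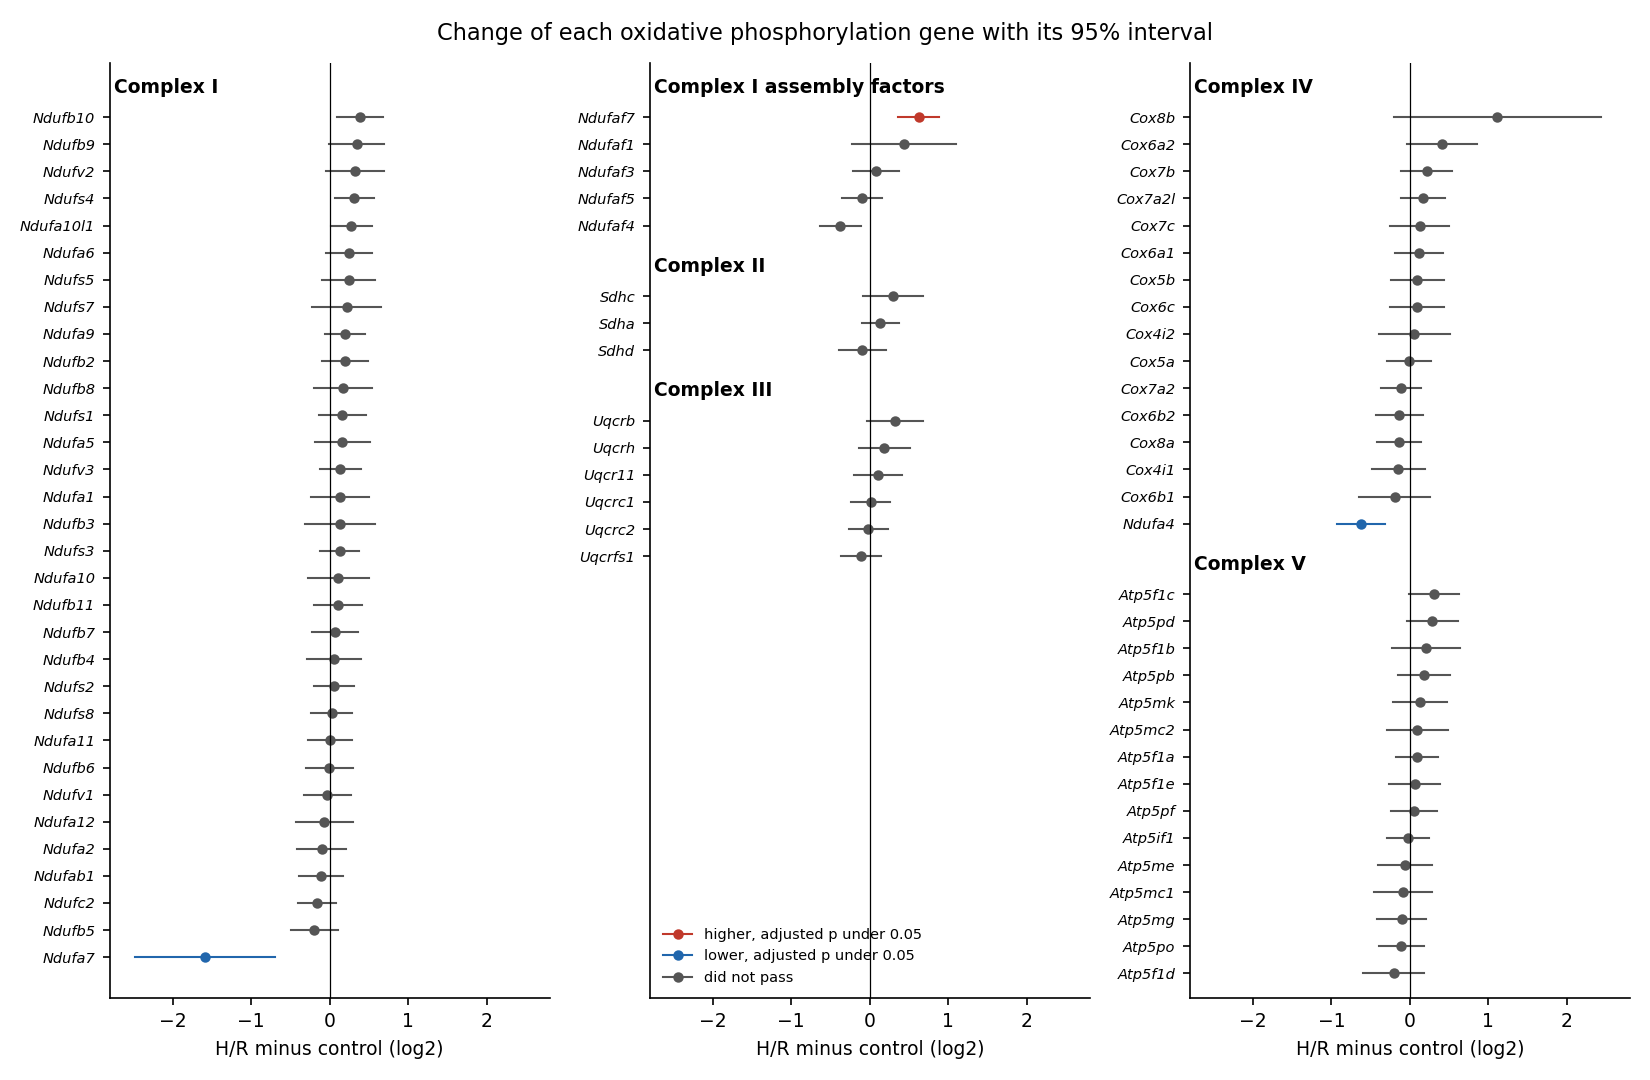
Change of each of the 77 genes tested, H/R minus control (horizontal axis, log2), by complex, with bars for the 95% interval from limma (2 arrays per group) and genes ordered by change; coloured points are those past the threshold. All but 3 intervals lie within 2-fold of 0, and Ndufa7, Ndufa4 and Ndufaf7 are the coloured points.

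Complex I, which oxidises NADH and is the largest of the complexes, gave 32 tested subunits, of which 0 rose and 1 fell (3.13%), with 24 positive and 8 negative changes. Ndufa7 (gene ID 299643), an accessory subunit, had processed signals of 293, 262 and 257 units in the control scans, listed by replicate, and of 49.95, 150.2 and 150.4 in the H/R scans. Relative to the 75th percentile its levels on arrays 1 and 2 were -3.07 and -3.01 in control and -5.15 and -4.11 in H/R. All H/R scans were below all control scans, and the H/R arrays differed from each other by 1.03, a gap reached by 51 of 10001 coding genes (0.510%). Ndufa7 fell by 1.59 ± 0.34, to 0.332 of control (95% interval 0.179 to 0.616, adjusted p = 0.0334). The size depended on the array: the change was -2.11 without H/R replicates 2 and 3 and -1.07 without H/R replicate 1. The call was lost without control replicate 1 (adjusted p = 0.0978) or without control replicates 2 and 3 (0.0890). After normexp correction the change was -0.01 (adjusted p = 0.991).

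The subunits with Ndufs and Ndufv symbols, among them those that hold the flavin and the iron-sulphur clusters, numbered 10. Of these 0 were called, with 9 positive changes and a median of 0.15. Ndufv1, the subunit that binds FMN and takes electrons from NADH, changed by -0.03 ± 0.12, with levels of 2.50 and 2.27 in the control arrays and 2.37 and 2.34 in the H/R arrays. Ndufs1, which carries iron-sulphur clusters, changed by 0.16 ± 0.11, and its H/R arrays (2.51 and 2.301) lay just above its control arrays (2.22 and 2.27). Ndufs4, an accessory subunit needed for a stable NADH-oxidising module, had levels of 0.10 and 0.08 in control and 0.46 and 0.35 in H/R. Its change of 0.31 ± 0.10 did not pass (adjusted p = 0.0769), and it is named with its values known because its unadjusted p was under 0.05. With a trended prior it passed (adjusted p = 0.0322), and with median scaling the change was 0.19 (adjusted p = 0.297). Over the group the changes ran from -0.03 to 0.32, so the H/R arrays stood a little higher for most of these genes without any of them passing.

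The accessory subunits with Ndufa, Ndufb or Ndufc symbols numbered 22, of which 1, Ndufa7, was called, with a median of 0.11. Among those that did not pass, the largest positive change was that of Ndufb10, a membrane arm subunit. Its levels were 2.68 and 2.85 in control and 3.22 and 3.09 in H/R, with no overlap, and its change of 0.39 ± 0.11 missed the threshold (adjusted p = 0.0698) but passed with quantile scaling (adjusted p = 0.0392) and in the authors' deposited table (adjusted p = 0.0398). With median scaling it was 0.26 (adjusted p = 0.210), and with the 75th percentile taken over spots its adjusted p was 0.116. At the other end Ndufb5, also of the membrane arm, changed by -0.20 ± 0.12 (adjusted p = 0.268), with -2.68 and -2.47 in control and -2.81 and -2.73 in H/R. Ndufa10l1, a close relative of Ndufa10, changed by 0.28 ± 0.10 (unadjusted p = 0.0426, adjusted p = 0.113) and is also named with its values known, while Ndufa10 itself changed by 0.11 ± 0.15. Probes of such close relatives can take up each other's RNA. Apart from Ndufa7, then, the accessory subunits ran from -0.20 to 0.39.

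Ndufv3, a small flavoprotein subunit, was measured by a pair of probes to different transcripts. The brighter one, which stands for the gene, changed by 0.14 ± 0.10 (adjusted p = 0.370). The other had levels of -1.48 and -1.54 in control and -1.04 and -0.85 in H/R, and its signal was higher in H/R by 0.57 ± 0.11 (adjusted p = 0.0257). That probe was singled out after its values were seen, and the difference between the probes was not tested. Of the other genes with 2 probes, Sdha gave 0.13 and 0.25 and Ndufaf3 gave 0.08 and -0.03, with no probe called.

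Of the 5 complex I assembly factors 1 rose. Ndufaf7 (gene ID 298748) encodes a methyltransferase that modifies a core subunit while complex I is built. By replicate, its levels were -2.73, -2.64 and -2.65 in control and -2.13, -2.03 and -1.98 in H/R, with every H/R scan above every control scan. It rose by 0.62 ± 0.10, 1.54-fold (95% interval 1.28 to 1.85, adjusted p = 0.0171). Without control replicate 1, without H/R replicate 1 or without H/R replicates 2 and 3 the change was 0.58, 0.68 and 0.56 and the call was lost (adjusted p = 0.0623, 0.0700 and 0.0982).

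Ndufaf4, another assembly factor, moved the other way without passing. Its levels were 0.29, 0.43 and 0.41 in control and 0.00, -0.04 and -0.03 in H/R, and its change was -0.37 ± 0.10 (adjusted p = 0.0549). It passed as lower with quantile scaling (adjusted p = 0.0413), with median scaling (0.0324), with a trended prior (0.0206) and in the authors' deposited table (0.0411), and did not pass under the replicate block (0.0715), without the filter on dim probes (0.176) or after normexp (0.408). Ndufaf1, which acts on the membrane arm, had the largest positive change among the assembly factors that did not pass, 0.44 ± 0.25 (adjusted p = 0.261). Its control arrays lay far apart at -3.37 and -2.65, against -2.67 and -2.48 in H/R, so its change was 0.80 without control replicates 2 and 3 (adjusted p = 0.0378) and 0.08 without control replicate 1 (adjusted p = 0.742). Ndufaf3 and Ndufaf5 changed by 0.08 and -0.10. The assembly factors thus spread more widely, from -0.37 to 0.62, than the subunits they serve apart from Ndufa7.

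**Figure D3:**
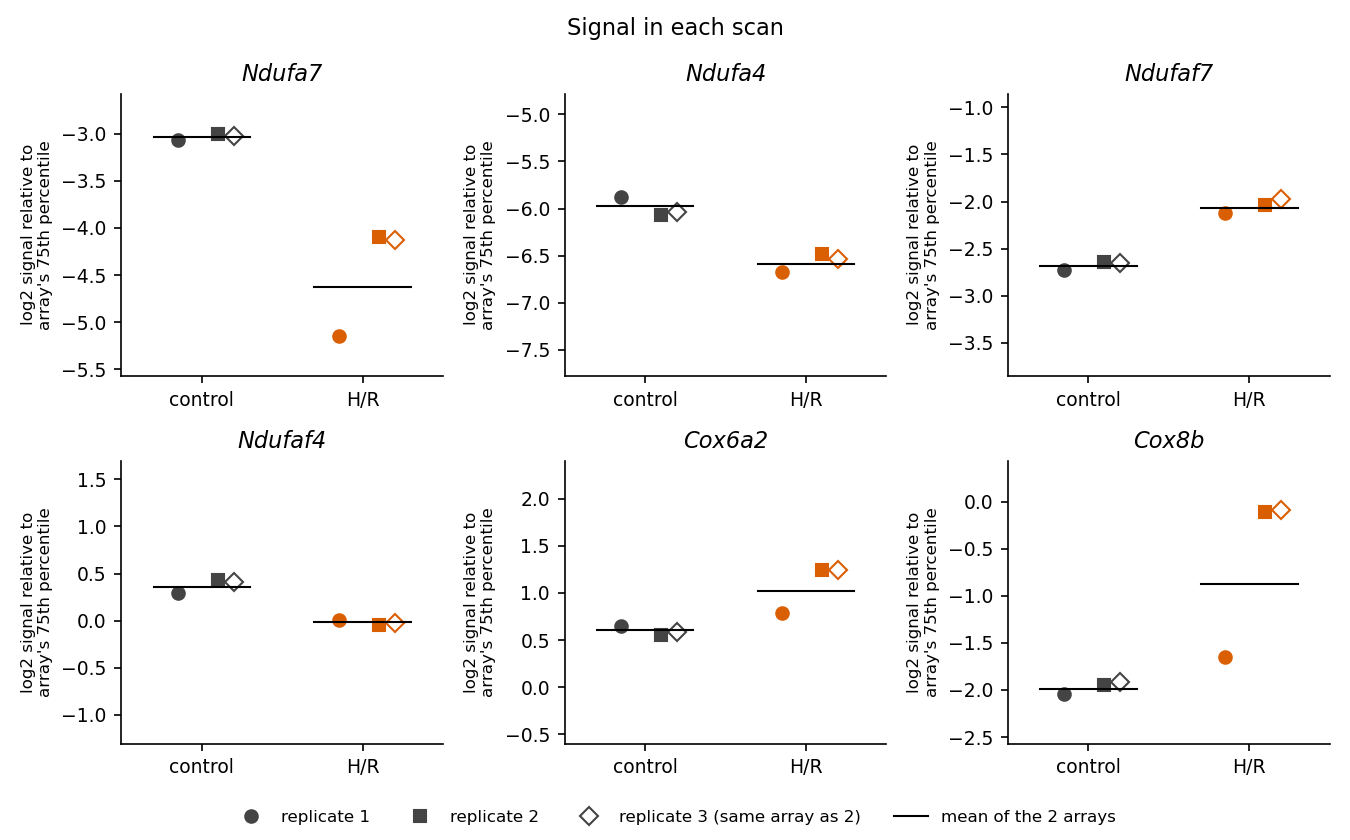
Signal of 6 genes in each scan (vertical axis, log2 relative to the array's 75th percentile, same span in every panel) in control and H/R; symbols mark replicates, replicates 2 and 3 of a group being scans of the same slide position, and lines the mean of the 2 arrays. For Ndufa7 and Cox8b the H/R arrays stand far apart (by 1.03 and 1.55), while for Ndufa4, Ndufaf7 and Ndufaf4 both H/R arrays lie close together on one side of control.

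Complex II, the succinate dehydrogenase shared with the tricarboxylic acid cycle, had 3 of its 4 genes tested and 0 called. Sdha, the flavoprotein that oxidises succinate, had levels of 2.88 and 2.82 in control and 2.99 and 2.97 in H/R, a change of 0.13 ± 0.09 (adjusted p = 0.333). Of the membrane anchors, Sdhc changed by 0.29 ± 0.15 (adjusted p = 0.208) and Sdhd by -0.10 ± 0.11 (adjusted p = 0.566). For Sdhc the H/R arrays (3.20 and 3.37) were above the control arrays (2.83 and 3.15), and for Sdhd the groups overlapped. Sdhb, the iron-sulphur subunit, was not tested because its spot was an outlier in control replicate 1. In the other 5 scans its levels were 2.16 and 2.16 in control and 2.32, 2.49 and 2.56 in H/R.

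Complex III, which passes electrons from coenzyme Q to cytochrome c, had 6 genes tested and 0 called, with changes from -0.11 to 0.32. Both core subunits were near 0: Uqcrc1 changed by 0.01 ± 0.09 and Uqcrc2 by -0.02 ± 0.10, with control and H/R arrays interleaved. The Rieske iron-sulphur protein gene Uqcrfs1 changed by -0.11 ± 0.10 (3.94 and 3.94 in control, 3.89 and 3.76 in H/R). At the top was Uqcrb, a small subunit of the complex, with -3.004 and -2.69 in control, -2.58 and -2.47 in H/R and a change of 0.32 ± 0.14 (adjusted p = 0.154). Uqcrq, another small subunit, was well above background in only 1 of 6 scans and was not tested.

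Complex IV, the oxidase that reduces oxygen, had 16 genes tested, of which 0 rose and 1 fell, with 9 positive and 7 negative changes. Ndufa4 (gene ID 681024), first described in complex I and now assigned to complex IV, gave dim processed signals, by replicate 41.7, 31.1 and 31.8 units in control and 17.3, 28.8 and 28.4 units in H/R. All 6 were scored well above background. Relative to the 75th percentile the levels were -5.88, -6.07 and -6.04 in control and -6.68, -6.48 and -6.54 in H/R, and every H/R scan was below every control scan. Ndufa4 fell by 0.62 ± 0.12, to 0.649 of control (95% interval 0.525 to 0.802, adjusted p = 0.0244). With normexp correction of the median spot signals in place of the processed signals the change was 0.84 (adjusted p = 0.562), the opposite sign. The call was lost without control replicate 1 (-0.54, adjusted p = 0.0809), without H/R replicate 1 (-0.54, 0.116) or without H/R replicates 2 and 3 (-0.71, 0.0797).

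The ubiquitous forms of complex IV subunits differed little between groups. Cox4i1, which begins the assembly around the catalytic core, changed by -0.15 ± 0.13, and Cox4i2, its form in lung and under low oxygen, by 0.06 ± 0.17 at a dim signal. Cox4i2 levels were -6.23 and -6.40 in control and -6.04 and -6.48 in H/R, so the groups overlapped, and its 95% interval ran from 0.761-fold to 1.42-fold. Cox6a1 changed by 0.11 ± 0.12, Cox6b1 by -0.19 ± 0.17 and its testis form Cox6b2 by -0.13 ± 0.11. Cox6b1 had the most negative change that did not pass in this complex (adjusted p = 0.455). Cox7a2 changed by -0.12 ± 0.10 and Cox7a2l, which joins complexes III and IV into a supercomplex, by 0.16 ± 0.11. The other ubiquitous subunits, Cox5a, Cox5b, Cox6c, Cox7b and Cox7c, ran from -0.01 to 0.21. Cox8c, the testis form of Cox8, was well above background in 0 of 6 scans, and Cox7a1 and Ndufa4l2 were not analysed here.

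The muscle forms were less even. Cox8b (gene ID 25250), the heart and skeletal muscle form of the smallest subunit, gave 594, 544 and 552 units in the control scans and 562, 2383 and 2469 units in the H/R scans, again by replicate. Its levels were -2.05, -1.95 and -1.92 in control and -1.65, -0.11 and -0.09 in H/R. H/R array 2 was thus far above the rest while H/R array 1 was only slightly above control. The gap of 1.55 between the H/R arrays was matched or exceeded by 16 of 10001 coding genes (0.160%). The change of 1.11 ± 0.51 had a 95% interval of 0.869-fold to 5.38-fold and did not pass (adjusted p = 0.174). Without H/R replicates 2 and 3 it was 0.34, and without H/R replicate 1 it was 1.89 and passed (adjusted p = 0.0209). The ubiquitous Cox8a, with 4.92 and 5.04 in control and 4.92 and 4.77 in H/R, changed by -0.14 ± 0.11, so the changes of the pair differed by 1.25 (not tested).

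Cox6a2, the muscle form of Cox6a, was also higher on H/R array 2 than on H/R array 1. Its levels were 0.65, 0.55 and 0.58 in control and 0.79, 1.25 and 1.24 in H/R, and its change of 0.41 ± 0.17 did not pass (adjusted p = 0.152). The H/R arrays differed by 0.45, a gap reached by 560 of 10001 coding genes, and the changes of Cox6a2 and Cox6a1 differed by 0.29.

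Some muscle markers stood apart between the same H/R arrays. The gap between H/R array 2 and array 1 was 1.93 for the intermediate filament gene Des, reached by 6 of 10001 coding genes, and 0.80 for the muscle creatine kinase gene Ckm, reached by 141. These were picked with their values known. Over the 14 muscle markers measured, H/R array 2 was above array 1 for 10, with a median gap of 0.13, and the gap ran the other way for Chrnb1 (-0.50), Actc1 (-0.15), Acta1 (-0.09) and Myh3 (-0.08). All 14 were tested, 5 rose (Tnnt2, Myh3, Chrna1, Tnnt1 and Ckm) and 2 fell (Myod1 and Chrnb1), and their summed signal relative to the 75th percentile was 40.5 and 43.5 in the control arrays and 43.4 and 48.1 in the H/R arrays. Tnnt2, which encodes cardiac troponin T, rose by 1.13 ± 0.09 (adjusted p = 0.00379) with both H/R arrays at 2.76. Myod1, the myogenic transcription factor gene, fell by 1.48 ± 0.18 (adjusted p = 0.00814), with 1.26 and 1.55 in the H/R arrays. Myog, a later myogenic factor gene, changed by 0.06 ± 0.10. The part of these markers in the values of Cox8b and Cox6a2 was not tested.

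**Figure D4:**
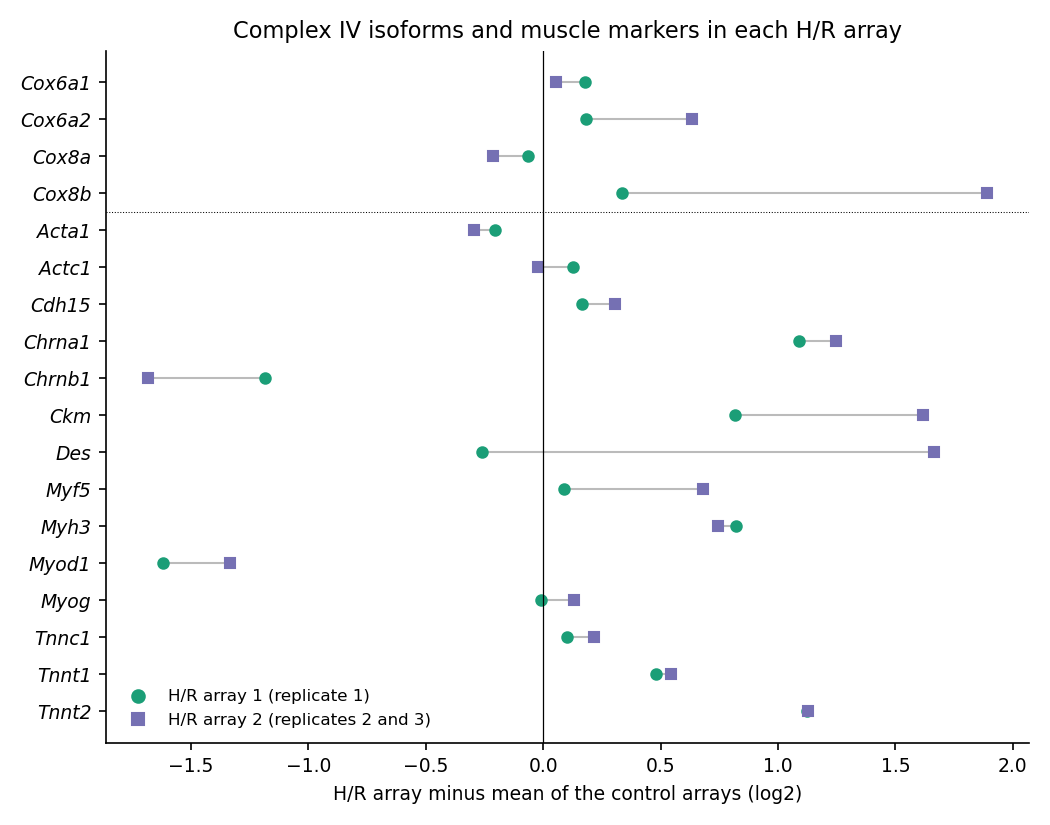
Each H/R array minus the mean of the 2 control arrays (horizontal axis, log2) for 4 complex IV isoform genes (above the dotted line) and the 14 muscle markers measured (below it); circles are H/R array 1 and squares H/R array 2. Cox8b and Des have the longest bars, 1.55 and 1.93, while Tnnt2 lies at the same value in both arrays.

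Markers of other cell types were read on the same arrays. Of the leukocyte markers Ptprc, Adgre1 and Itgam were not above background in any scan, 0 of the 4 tested were called (limma, 1 at an unadjusted p under 0.05), and the summed signal on arrays 1 and 2 was 1.27 and 1.14 in control and 1.25 and 1.28 in H/R. The endothelial markers Pecam1 and Cdh5 were not above background in any scan, and Tek rose by 1.11 ± 0.13, taking the sum from 0.0506 and 0.0529 to 0.0963 and 0.115. Among markers of neurons and glia Rbfox3 was not above background in any scan, Tubb3 rose by 1.21 ± 0.10, and the sum was 0.508 and 0.488 in control and 0.839 and 0.882 in H/R. In the mesenchymal list Pdgfrb rose (1 of 6), and the sum was 96.7 and 115 in control and 128 and 123 in H/R. Over all coding genes tested, 25.8% were called. The part of these markers in the results on members was not tested.

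Complex V, the ATP synthase, had 15 genes tested and 0 called (limma, 0 also before adjustment), with changes from -0.21 to 0.31. In the F1 sector, where ATP is made, the alpha subunit gene Atp5f1a had 4.61 and 4.72 in control and 4.82 and 4.70 in H/R, a change of 0.09 ± 0.10. The catalytic beta subunit gene Atp5f1b changed by 0.20 ± 0.17, with 4.94 and 5.31 in control and 5.45 and 5.21 in H/R, so the groups overlapped. The extremes of the complex both lay in F1: the gamma subunit gene Atp5f1c, the rotating shaft, at 0.31 ± 0.12 (adjusted p = 0.135), and the delta subunit gene Atp5f1d at -0.21 ± 0.15 (adjusted p = 0.360). Over the 9 genes of the Fo sector and the stalks the median was 0.05 and the range -0.11 to 0.29. The c-ring genes Atp5mc1 and Atp5mc2, which encode the same mature protein, changed by -0.09 and 0.09. Atp5if1, which encodes the inhibitor that stops the enzyme from running backwards when the proton gradient fails, changed by -0.03 ± 0.10, with a 95% interval of 0.814-fold to 1.18-fold. All 15 intervals of this complex lay within 2-fold.

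Genes that build, feed or control the complexes, were read from lists chosen with earlier results of these data known. The share called was 10.7% among assembly factors outside the rule and 26.3% among electron carriers and coenzyme Q enzymes. It was 21.4% in the list of regulators and mitochondrial DNA genes and 11.1% in that of transporters and pores, beside 25.8% of all coding genes. None of these shares was far above that of coding genes, and they were not tested against it or against that of the subunits. Of 28 assembly factors outside the rule 2 rose and 1 fell (median 0.09). Timmdc1, a complex I assembly factor, rose by 0.45 ± 0.09 (adjusted p = 0.0299) and Sdhaf2, which attaches the flavin of complex II, rose by 0.39 ± 0.09 (adjusted p = 0.0388). Higd1a, a hypoxia-inducible protein associated with complexes III and IV, fell by 0.72 ± 0.10 (adjusted p = 0.0128), with 0.13 and 0.25 in control and -0.58 and -0.47 in H/R.

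Among electron carriers and enzymes of coenzyme Q synthesis 3 of 19 rose and 2 fell. Coq8a, an atypical kinase needed for coenzyme Q synthesis, rose 2.52-fold, by 1.34 ± 0.12 (adjusted p = 0.00426), from -2.57 and -2.38 in control to -1.21 and -1.07 in H/R. Etfdh, which passes electrons from fatty acid oxidation to coenzyme Q, rose by 0.56 ± 0.10 (adjusted p = 0.0214), and Gpd2, the mitochondrial glycerol phosphate dehydrogenase that also feeds coenzyme Q, fell by 0.67 ± 0.10 (adjusted p = 0.0135). The other called members, Coq4 and Coq10b, changed by 0.46 and -0.44. Both directions thus occurred in this list, and its median was 0.04.

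The list of regulators of mitochondrial biogenesis also held genes for copying and transcribing mitochondrial DNA. Of its 14 genes tested, 0 rose and 3 fell, with 11 negative changes and a median of -0.17. Ppargc1b, a coactivator of nuclear respiratory genes, fell by 0.56 ± 0.10 (adjusted p = 0.0209). The mitochondrial DNA polymerase gene Polg fell by 0.48 ± 0.10 (adjusted p = 0.0303) and Twnk, which encodes the mitochondrial DNA helicase, fell by 0.55 ± 0.13 (adjusted p = 0.0423). Nrf1 and Gabpa, whose products bind the NRF1 and ETS letters searched above, changed by -0.28 ± 0.09 and -0.15 ± 0.09 and did not pass (adjusted p = 0.0882 and 0.287). Ppargc1a, the best known coactivator of the family, was not tested for want of signal above background.

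Of 9 transporters and pore proteins for ATP, ADP and phosphate 0 rose and 1 fell, with a median of -0.24. The one that fell was Vdac1, the main pore of the outer mitochondrial membrane, by 1.67 ± 0.36 (adjusted p = 0.0326), from -4.59 and -5.38 in control to -6.28 and -7.02 in H/R. Its probe was dim, with a mean log2 signal of 5.19, and its values under other settings are not given here. The ADP/ATP carrier genes Slc25a4 and Slc25a5 changed by -0.08 and -0.26 and did not pass. In the tricarboxylic acid cycle and pyruvate dehydrogenase list 0 of 18 were called (limma, 1 at an unadjusted p under 0.05), with a median of 0.13 and a range of -0.26 to 0.44.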

How the data were processed

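RNA from control (3 samples) and H/R (3 samples) H9c2 cultures was read on 1-colour Agilent arrays. The scanner files deposited by the authors hold processed intensity values per spot from Agilent Feature Extraction 11.0.1.1, corrected for background within the array per the file headers and not normalized between arrays. They also hold 0 or 1 flags (other than measurements) for outliers and for spots well above background. A second deposited table gives the authors' log2 values of 16841 probes, which correlated with the log2 scanner values at 0.9998 or more. Its column medians were 9.182 to 9.187, so genes were not centred. The sources used here do not give its normalization.

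After removal of control and outlier spots, log2 signals of replicate spots were averaged per probe, and each array's 75th percentile over usable probes was subtracted. The probe that stands for each of the 80 members had 1 spot per array, so no member value is a mean over spots. Of 24682 probes 24578 were usable in all scans, and the 15899 scored well above background in all 3 scans of a group were tested. Of 42136 non-control spots, 58.4% to 71.1% per scan passed that score and 0 were saturated. Precision is limited by the number of arrays. Replicates 2 and 3 of a group were averaged. The comparison, 2 arrays against 2, used lmFit and eBayes in limma 3.58.1 (R 4.3.3, two-sided, 2 residual and 2.861 prior degrees of freedom) with Benjamini-Hochberg adjustment over all probes tested. It was tested on simulated data with 50 changed probes of each size among 15899. There 0% of log2 changes of 0.5, 42% of those of 1 and 94% of those of 2 were called, with 6 false calls among 122. In that setting, changes as small as those of most members were seldom called. The data differed from it, with 2358 probes called higher and 1411 lower, many more than were changed in the simulation. The adjustment is less strict where more probes change, so the simulated shares do not carry over to the data. Ndufaf7, for example, was called in the data at a change of 0.62. Python 3.11.15 with pandas 2.3.3 read the files. All arrays lay on 1 slide, each at its own position, so group cannot be told apart from position.

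Symbols came from a RefSeq table of GRCr8 through unversioned accessions (14272 of 15321 coding probes). The members, the gene lists and the rule for names were chosen with earlier results of these data known. The text names every member called, in each complex the largest and smallest change that did not pass, 25 genes fixed by name (23 on the array), and up to 3 called genes per list. Members named otherwise are said to be so, or belong to a group given whole. Marker genes and regulators named beside these results come from the fixed lists. Same-numbered arrays deviated together at r = 0.1527 over probes, and only 2 numbers were left to pair. Alternatives changed the scaling, background correction, filter, prior, probe choice, source table, replicate block and the scans used. The 75th percentile over spots was an alternative chosen after seeing the data.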

Additional observations from a re-analysis of the deposited data

How the results depend on the processing

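The count of oxidative phosphorylation genes called higher (1) and lower (2) in H/R was the same under the replicate block (1 and 2, the same 3 genes), with the mean of a gene's probes, and with the 75th percentile over spots, an alternative chosen after seeing the data. Median scaling and a filter that asks for signal above background in both groups gave 1 higher and 3 lower, quantile scaling and the authors' deposited table gave 2 and 3, and a trended prior gave 3 and 3. With the 6 scans as separate samples 11 were higher and 5 lower (54.3% of coding genes called), and with scan as a block as well 7 and 4 (48.7%). After normexp correction, or without the filter on dim probes, 0 were higher and 0 lower, where 0% and 3.10% of coding genes were called. Normexp was run on the median signals and median backgrounds, the columns the files hold. Leaving out arrays or scans gave 0 to 2 higher, 0 to 2 lower and a median change from -0.00135 (without control replicate 1) to 0.158. The median was -0.033 with median scaling and 0.0068 after normexp, beside -0.061 and 0.227 over coding genes. Members minus coding genes, the difference of medians was 0.028 in the main fit, -0.220 after normexp and -0.046 without control replicate 1. Of the 3 genes called, Ndufa4 alone turned its sign, to 0.84 after normexp, and the cause was not tested. Of the genes not called, 20 turned sign with median scaling and 19 after normexp. The replicate block changed no call of a member. With 2 numbers in common it is not known whether they pair the arrays. With 2 arrays per group the median standard error of a single member's change was 0.119. Leaving out an array leaves 1 in its group, which is then assumed to vary like the other group.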
